A study of Bos taurus with 24 samples.

Results

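The subunits of the transcription factor NF-kB and the genes that hold it in check were followed through the response of bovine dermal fibroblasts to lipopolysaccharide (LPS), the endotoxin of Gram-negative bacteria. Members were chosen by gene symbol: 5 subunit genes (NFKB1, NFKB2, RELA, RELB, REL) and 5 inhibitor genes (NFKBIA, NFKBIE, NFKBIZ, BCL3, TNFAIP3). These were 10 of the 27550 rows with a gene symbol, and each symbol was found on 1 row. Dermal fibroblasts are the connective tissue cells of the skin. They had been grown from shoulder skin biopsies of heifers, 4 of the Angus beef breed and 4 of the Holstein dairy breed, frozen, and later thawed side by side for both breeds. All cultures received LPS at 100 ng/ml and were sampled at 0, 2 and 8 h, so that mRNA was sequenced in 24 samples from 8 animals, in 6 groups of 4. Lysates of duplicate wells were pooled, and each sample stands for 1 animal at 1 hour. No culture left without LPS for 2 or 8 h is among the groups, so LPS and hours in culture cannot be told apart, and neither can breed and the rearing of the animals.

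NF-kB is a dimer of subunits that waits in the cytoplasm bound to inhibitors of the IkB family. When Toll-like receptor 4 senses LPS, the IKK kinases mark the inhibitor for degradation and the dimer moves to the nucleus, where it switches on cytokine, chemokine and adhesion genes. Its targets include its own inhibitors and several of its own subunits, which is the textbook example of negative feedback in inflammation.

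Total counts ranged from 51014538 to 104406293 per sample, and 3 counts, taken as the smallest level the depth could show, stood for 0.0287 to 0.0588 CPM (counts scaled to a library of fixed size). Each count of the collagen gene COL1A1 stood for 66.2 to 67.1 covered bases in 4 samples but for 111.8 to 119 in all others. The 4 were 3 samples at 0 h (Angus animal 4 and Holstein animals 2 and 4) and 1 at 2 h (Angus animal 3). The members' own counting differed little in them (for NFKBIA, 72.7 to 73.2 covered bases per count against 71 to 73.7). Fits without these 4 libraries are given beside the results that rest on them. All 10 fibroblast markers were detected in every sample, the lowest value being 116 CPM (PDGFRB). Of the 4 keratinocyte markers, KRT1 was at 0 in all 24 samples, while the list summed to between 0.394 and 0.683 CPM in each Angus sample and to between 0.582 and 13.6 CPM in each Holstein sample, the highest values being those of Holstein animal 1 (11 to 13.6 CPM over its 3 hours). The summed levels of the 7 leukocyte, 4 endothelial and 4 melanocyte markers stayed between 1.48 and 5.73 CPM in every sample. The leukocyte sum was 2.15 to 3.34 CPM in Holstein samples at 0 h and 4.57 to 5.73 CPM at 2 h, against 3.38 to 5.21 and 4.93 to 5.15 CPM in Angus, with the leukocyte gene PTPRC at 0.709 CPM or less throughout, and the part of these cells in the results below was not tested.

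Levels below are CPM after TMM scaling, a correction for library composition, over all 24 samples. Fold changes are log2 values with their standard error (SE) from the likelihood-ratio fit, and a change was called where its false discovery rate (FDR) over all rows tested was under 0.05. In such bulk samples, fewer cells and less RNA in each cell cannot be told apart.

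**Figure D1:**
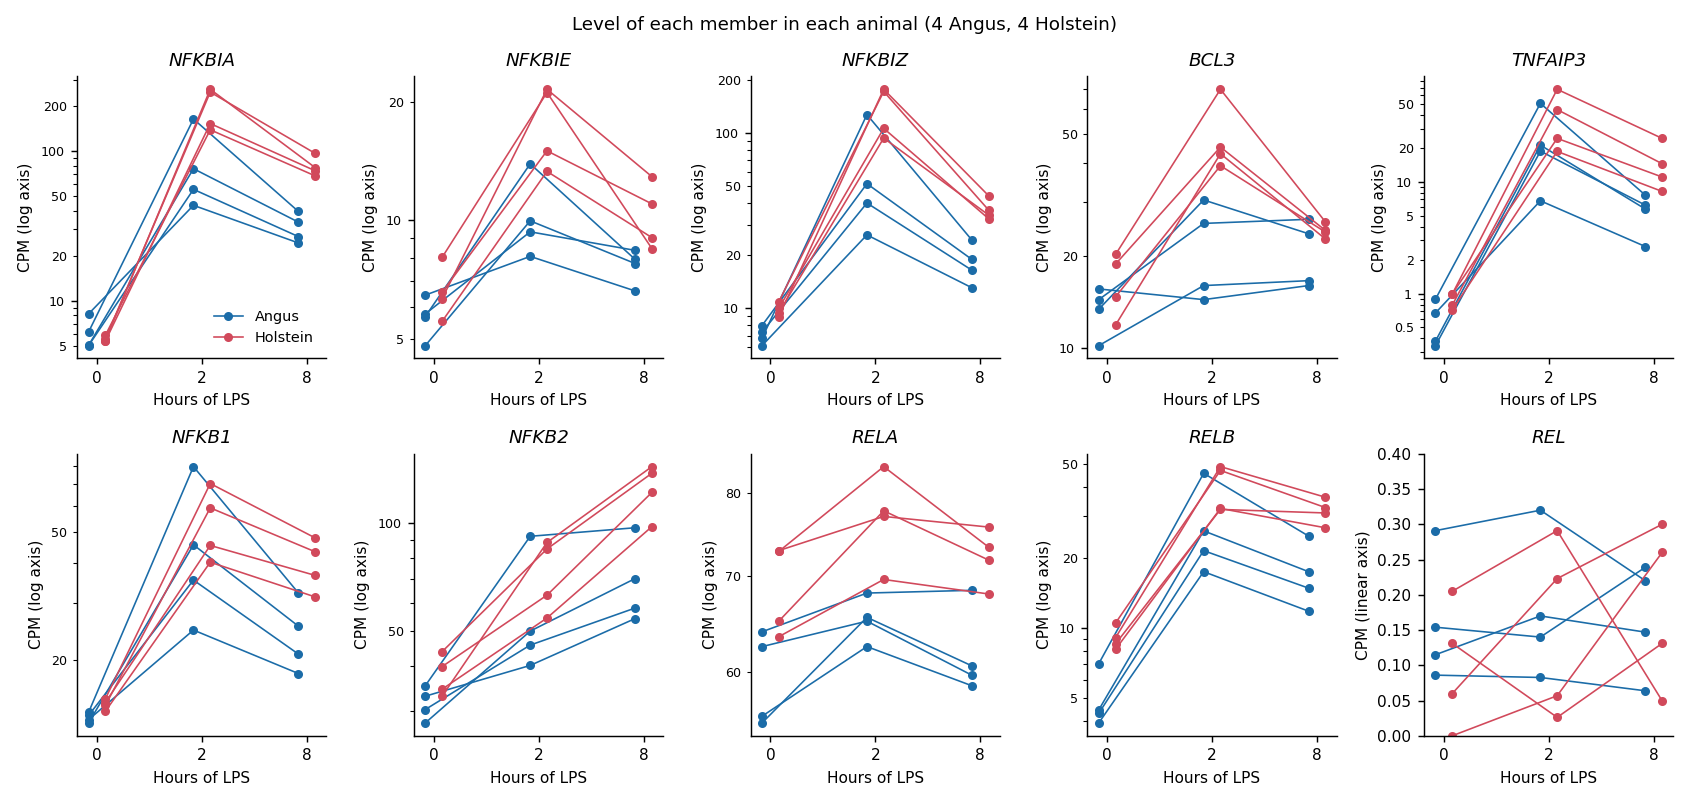
Level of each of the 10 members in each animal at 0, 2 and 8 h of LPS, in CPM on a log axis (linear for REL); lines join the samples of 1 animal, blue for the 4 Angus and red for the 4 Holstein animals. NFKBIA rose from between 5.03 and 8.19 CPM at 0 h to between 43.5 and 259 CPM at 2 h, while NFKB2 was highest at 8 h in all 8 animals.

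With both breeds together, 8 of the 9 members that could be tested had risen at 2 h and none had fallen, where 10.8% of all rows tested were called higher. The median log2 fold change of the 9 was 1.84, against -0.004 over all rows. At 8 h the same number, 8 of 9, were above their 0 h level (6.55% of rows called higher), with a median of 1.49 against -0.007. Both comparisons used the same 0 h samples. TNFAIP3 was under the low-count filter at 0 h and entered both comparisons through its treated samples. Its place among the risen members was therefore set in part by the filter. Within animals, 8 members, all but BCL3, were higher at 2 h than at 0 h in all 8 animals (17.8% of rows). At 8 h 8 were so, all but RELA (13.8% of rows). The lowest of the 8 samples at 2 h lay above the highest of the 8 at 0 h for 6 members (3.98% of rows), namely NFKBIA, NFKBIE, NFKBIZ, TNFAIP3, NFKB1 and RELB. At 8 h this held for 6 members too (1.66% of rows), with NFKB2 in place of NFKBIE. Each of the 8 called members, which were all of those tested but RELA, was called at both hours without the 4 libraries named above. The same held with any 1 animal left out.

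Of the inhibitors, NFKBIA (chromosome 21, 46065546 to 46068942, minus strand, build UMD v3.1) encodes IkB alpha, the main cytoplasmic inhibitor of NF-kB. Its level at 0 h was 5.05, 5.03, 6.2 and 8.19 CPM in Angus animals 1 to 4 and 5.39, 5.56, 5.89 and 5.44 CPM in Holstein animals 1 to 4. At 2 h it was 76.4, 55.6, 164 and 43.5 CPM in the Angus and 153, 248, 139 and 259 CPM in the Holstein samples. The breeds overlapped at both hours, at 2 h only through Angus animal 3, one of the 4 libraries that stood apart. At 8 h the values were 33.6, 26.9, 39.6 and 24.4 CPM in Angus and 74, 96.7, 68.4 and 77.7 CPM in Holstein, and no Angus sample reached the lowest Holstein sample. Angus animal 3 was the highest Angus sample at 8 h too, where its library was not one of the 4, so animal and library cannot be told apart at 2 h. The log2 fold change was 4.61 (SE 0.31, 24.3-fold, FDR 1.31e-34) at 2 h and 3.23 (SE 0.26, 9.41-fold, FDR 1.83e-26) at 8 h. Of the 2 h rise, between 21.2% (Angus animal 3) and 46.9% (Holstein animal 3) was left at 8 h.

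NFKBIE (chromosome 23, 17879934 to 17887218, minus strand) encodes IkB epsilon, a second cytoplasmic inhibitor. It moved far less than NFKBIA. Group means ± SD at 0, 2 and 8 h were 5.68 ± 0.678, 10.3 ± 2.5 and 7.68 ± 0.754 CPM in Angus and 6.61 ± 1.05, 17.7 ± 4.16 and 10.4 ± 2.03 CPM in Holstein (n = 4 each). Its log2 fold change was 1.19 (SE 0.20, FDR 1e-07) at 2 h and 0.55 (SE 0.14, FDR 0.00244) at 8 h. The interval next to it (17878560 to 17879933), which carries no gene symbol, also rose at 2 h (log2 1.29, SE 0.20, FDR 7.67e-09).

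NFKBIZ and BCL3 encode nuclear members of the IkB family, which bind NF-kB on DNA and can help as well as hinder transcription. NFKBIZ (chromosome 1, 46543487 to 46554484, plus strand) lay between 6.13 and 7.98 CPM in the Angus samples at 0 h and between 8.96 and 10.9 CPM in the Holstein samples. At 2 h it had reached 51.3, 39.8, 127 and 26.2 CPM in Angus animals 1 to 4 and 106, 177, 93.3 and 172 CPM in Holstein animals 1 to 4, and at 8 h it stood at 13.1 to 24.5 and 32.4 to 43.8 CPM. Angus animal 3 was again the only Angus sample inside the Holstein range at 2 h, and it was the highest Angus sample at 8 h. The log2 fold change was 3.55 (SE 0.33, FDR 8.28e-21) at 2 h and 1.70 (SE 0.23, FDR 4.46e-11) at 8 h.

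BCL3 (chromosome 18, 52922246 to 52931573, plus strand) was at 14.4, 10.2, 13.4 and 15.6 CPM in the Angus and 14.7, 11.9, 18.8 and 20.2 CPM in the Holstein samples at 0 h. At 2 h it was at 25.5, 16, 30.4 and 14.4 CPM in Angus and 39.3, 43, 45.2 and 69.7 CPM in Holstein, with no overlap. At 8 h the levels were 26.3, 16.6, 23.6 and 16 CPM in Angus and 23.9, 22.7, 24.2 and 25.8 CPM in Holstein. So the Holstein samples peaked at 2 h, while in 3 of 4 Angus animals the 8 h level was slightly above that at 2 h. With both breeds the log2 fold change was 1.25 (SE 0.27, FDR 8.99e-05) at 2 h and 0.58 (SE 0.15, FDR 0.00189) at 8 h. Angus animal 4 was the only animal in which BCL3 did not increase by 2 h (log2 -0.12).

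TNFAIP3 (chromosome 9, 76766557 to 76776874, plus strand) encodes a ubiquitin-editing enzyme that shuts off signalling upstream of IKK, and had the largest log2 fold change of the members at both hours. It was under the filter at 0 h, at 0.344, 0.378, 0.896 and 0.674 CPM in Angus (28 to 83 counts) and 1, 0.995, 0.719 and 0.793 CPM in Holstein (36 to 68 counts). The size of its fold changes therefore rests on low 0 h counts. It passed the filter against 0 h, with both breeds and within each breed, through its treated samples. At 2 h it was at 18.9, 21.4, 50.6 and 6.8 CPM in Angus and 24.6, 67.6, 18.8 and 44.5 CPM in Holstein. At 8 h it had come down to 6.22, 5.74, 7.64 and 2.65 CPM in Angus and 11.1, 24.6, 8.25 and 14.6 CPM in Holstein. The breeds overlapped at 2 h and were apart at 8 h, and Angus animal 4 was lowest at both. The log2 fold change was 5.45 (SE 0.38, 43.6-fold, FDR 4.03e-31) at 2 h and 3.79 (SE 0.37, 13.9-fold, FDR 1.04e-17) at 8 h. The interval without a gene symbol that follows the gene, 76776875 to 76937940, also rose, by log2 4.83 (SE 0.36, FDR 3.84e-29) at 2 h and 3.14 (SE 0.36, FDR 2.39e-13) at 8 h.

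Among the subunits, NFKB1 and NFKB2 encode precursors that are processed to DNA-binding subunits without an activation domain of their own. NFKB1 (chromosome 6, 23557313 to 23670155, minus strand) was tight at 0 h, where Angus samples had 12.8 to 13.8 CPM and Holstein samples 13.9 to 15.2 CPM. It spread out at 2 h to 45.5, 35.4, 79.4 and 24.8 CPM in Angus animals 1 to 4 and 45.3, 70.4, 40.2 and 59.2 CPM in Holstein animals 1 to 4, and was at 18.2 to 32.3 and 31.4 to 47.8 CPM at 8 h. Angus samples were both the highest and the lowest at 2 h. NFKB1 thus had a log2 fold change of 1.84 (SE 0.19, FDR 5.43e-19) at 2 h and 1.19 (SE 0.17, FDR 7.56e-10) at 8 h. Its row overlaps that of LOC100335751 on the opposite strand (23563971 to 23566602, log2 1.64 at 2 h) and an interval without a symbol (23566603 to 23738228, log2 1.78 at 2 h), so the reads of these 3 rows cannot be told apart. No other member's row overlapped another row.

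NFKB2 (chromosome 26, 22891398 to 22898461, plus strand), whose product serves the slower noncanonical branch of the pathway with RELB, had a later time course. It went from 27.7, 30.2, 35.2 and 32.9 CPM at 0 h to 50, 45.7, 92 and 40.1 CPM at 2 h and 70.1, 58, 97.2 and 54.2 CPM at 8 h in Angus animals 1 to 4. In Holstein animals 1 to 4 the values were 39.8, 32.9, 34.4 and 43.8 CPM at 0 h, 63, 88.4, 54.4 and 84.8 CPM at 2 h and 122, 144, 97.9 and 138 CPM at 8 h. Every animal was higher at 8 h than at 2 h, and at 8 h the lowest Holstein sample was just above the highest Angus sample, that of animal 3. The log2 fold change was 0.90 (SE 0.18, FDR 7.85e-06) at 2 h and 1.49 (SE 0.20, FDR 2.43e-11) at 8 h.

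RELB (chromosome 18, 53099706 to 53128176, plus strand) encodes the activating partner of the NFKB2 product. At 0 h it was at 4.47, 4.32, 7.04 and 3.93 CPM in Angus and 8.56, 9.09, 8.11 and 10.5 CPM in Holstein, and the breeds were apart before any LPS. At 2 h it was at 26, 21.4, 45.8 and 17.4 CPM in Angus and 32.1, 48.9, 32.4 and 47.1 CPM in Holstein, and at 8 h at 17.4, 14.8, 24.7 and 11.8 CPM in Angus and 31, 36.2, 26.8 and 32.7 CPM in Holstein. Angus animal 3 was the highest Angus sample at all 3 hours and the only one within the Holstein range at 2 h. The log2 fold change was 2.27 (SE 0.26, FDR 2.08e-15) at 2 h and 1.80 (SE 0.26, FDR 3.55e-09) at 8 h, and the change from 0 to 8 h lay between 1.59 and 1.99 in all 8 animals.

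RELA (chromosome 29, 44496358 to 44505000, minus strand) encodes the subunit that carries the activation domain of the classical dimer. It was the steadiest of the 9, between 55.3 and 83.4 CPM in all 24 samples. The log2 difference was 0.15 (SE 0.09, 95% confidence interval -0.027 to 0.325, FDR 0.267) at 2 h and 0.06 (SE 0.09, interval -0.109 to 0.234, FDR 0.731) at 8 h, neither of which was called. With the animal as a block the 2 h difference kept its size (0.15) and was called (FDR 0.00129), and it was positive in all 8 animals, from 0.06 to 0.26. REL (chromosome 11, 43490339 to 43527753, plus strand), which encodes a subunit known mainly from lymphoid cells, had 0 to 30 counts in a sample (0 to 0.32 CPM) and stayed under the filter in every comparison. The sample with no count, Holstein animal 4 at 0 h, allows a level of up to 0.0588 CPM. Without the filter its log2 difference was 0.29 (SE 0.50, FDR 0.838) at 2 h and 0.39 (SE 0.45, FDR 0.742) at 8 h, so a change was not detectable at this depth.

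**Figure D2:**
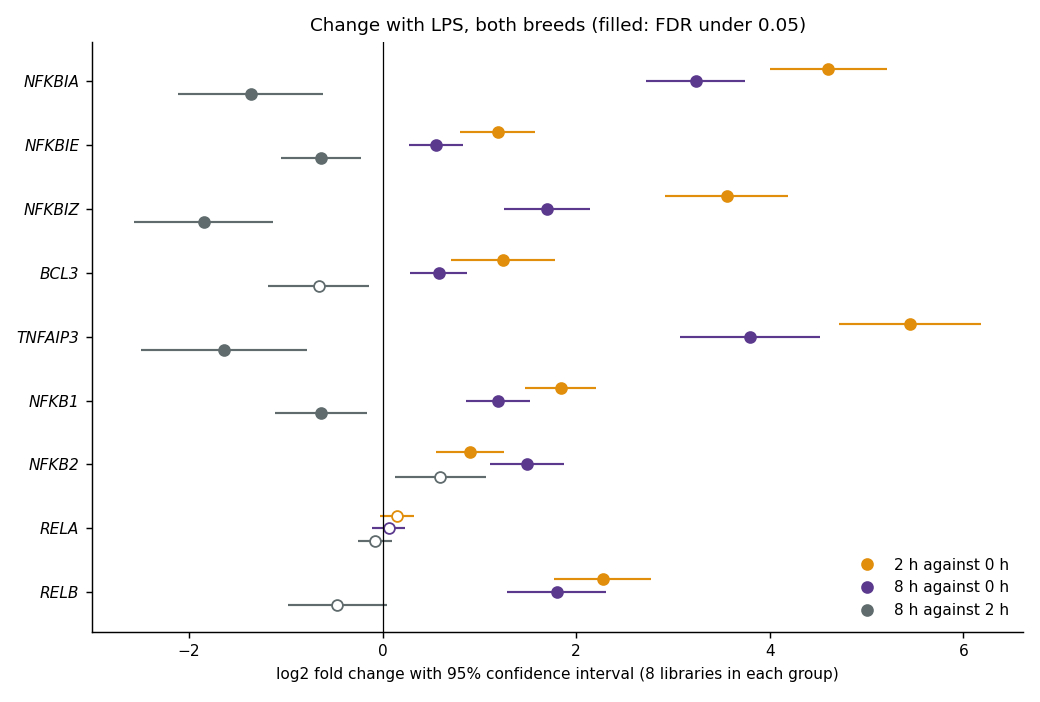
log2 fold change (x axis, with 95% confidence interval) of the 9 members tested at 2 h and at 8 h against 0 h and at 8 h against 2 h, 8 libraries in each group; filled points had an FDR under 0.05. All members but RELA were called higher at 2 h and at 8 h, from 0.90 (NFKB2) to 5.45 (TNFAIP3) at 2 h, and 5 were called lower at 8 h than at 2 h.

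Set directly against 2 h, the 8 h samples showed which members had come down again. The inhibitors NFKBIZ (log2 -1.85, SE 0.36, FDR 1.57e-05), TNFAIP3 (-1.64, SE 0.44, FDR 0.00208), NFKBIA (-1.36, SE 0.38, FDR 0.0034) and NFKBIE (-0.63, SE 0.21, FDR 0.0145) and the subunit NFKB1 (-0.64, SE 0.24, FDR 0.0384) had fallen. These were 5 of 9 members, where 11.6% of rows were called lower. The values of BCL3 (-0.66, FDR 0.0561), RELB (-0.47, FDR 0.204), RELA (-0.08, FDR 0.594) and NFKB2 (0.60, FDR 0.0521) did not pass. In single animals, 6 members were lower at 8 h than at 2 h in all 8 (17.2% of rows), namely the 5 that were called and RELB. NFKB2 was the only one of the 9 that was higher in all 8. Scaling to the total count instead of by TMM moved the median of all rows by 0.133 in this comparison, and the value of RELA to 0.049. With that scaling NFKB1 was not called (-0.50, FDR 0.0758) and NFKB2 was called higher (0.73, FDR 0.00459).

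The same animals were sampled at both hours, and with the animal as a block BCL3 (-0.51, FDR 0.0071) and RELB (-0.48, FDR 3.58e-08) also fell, 7 members in all where 23.6% of rows were called lower. In that fit NFKB2 rose by 0.57 (FDR 3.47e-09), where 24.7% of rows were called higher. The call of NFKB1 was lost by the quasi-likelihood F test (FDR 0.0624), without the 4 libraries (-0.52, FDR 0.104) and with any of 6 animals left out, and that of NFKBIE without Angus animal 3 or Holstein animal 4 (highest FDR 0.0793).

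Within Holstein cultures, 8 of the 9 members had risen at 2 h (9.00% of rows called higher) and 8 at 8 h (8.19%), RELA being the exception at both hours. Within Angus cultures, 7 were called higher at 2 h (6.88%), all but RELA and BCL3, and 6 at 8 h (1.94%), all but RELA, BCL3 and NFKBIE. The Angus value of BCL3 at 8 h was 0.62 (SE 0.21, FDR 0.0747), against 0.56 in Holstein. That of NFKBIE was 0.43 (SE 0.16, FDR 0.131). All members but RELA, 8 at each hour, had an unadjusted p under 0.05 in Angus by the likelihood-ratio test. DESeq2 called 8 at each hour in Angus. NFKBIA was 35.7-fold higher at 2 h and 14.2-fold at 8 h in Holstein (log2 5.16, SE 0.21, and 3.83, SE 0.13), and 13.9-fold and 5.07-fold higher in Angus (3.79, SE 0.39, and 2.34, SE 0.22). TNFAIP3, in contrast, was 44.1-fold higher at 2 h in Holstein and 42.4-fold in Angus. BCL3 was 2.99-fold higher at 2 h in Holstein (log2 1.58, SE 0.23, FDR 3.24e-10) and 1.61-fold in Angus (0.69, SE 0.26, FDR 0.0644). RELB was 4.41-fold higher in Holstein and 5.59-fold in Angus at 2 h, the only called member with the larger 2 h value in Angus, but without the 4 libraries this order turned (log2 2.26 in Holstein and 2.03 in Angus). Standard errors at 2 h were larger in Angus than in Holstein for all 9 members. Without the libraries that stood apart (animal 4 at 0 h, animal 3 at 2 h) the Angus values at 2 h were smaller, 3.43 for NFKBIA, 2.41 for NFKBIZ and 4.85 for TNFAIP3 on the log2 scale, and all 3 were still called. The Holstein calls of NFKBIE and BCL3 at 8 h were lost without Holstein animal 1 (highest FDR 0.117), that of NFKBIE also without animal 2. The Angus calls of NFKB2 at 2 h (without animal 1 or 2, highest FDR 0.11) and of NFKB1 at 8 h (without animal 1, FDR 0.056) were lost as well.

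**Figure D3:**
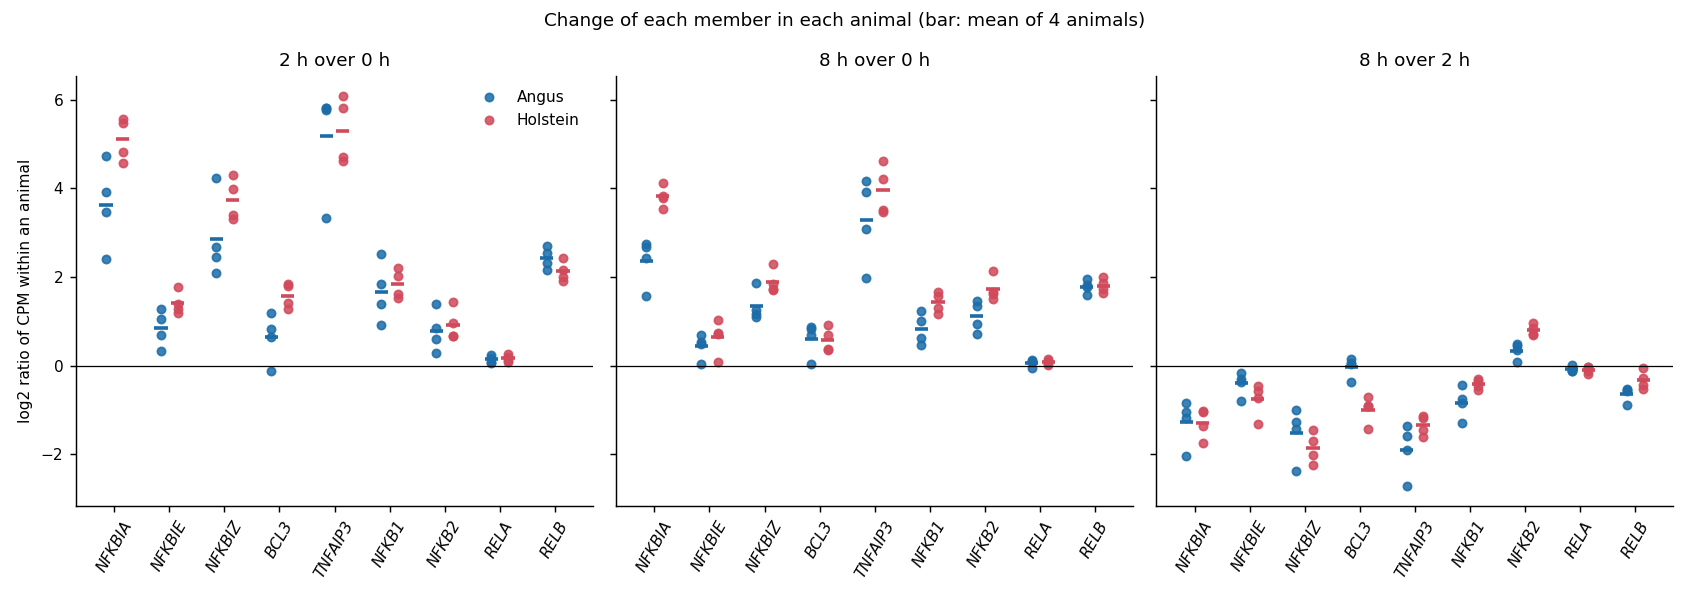
log2 ratio of CPM between hours within each animal (y axis), for the 9 members tested, blue for the 4 Angus and red for the 4 Holstein animals; bars are means of 4. From 0 to 8 h, NFKBIA changed by 1.57 to 2.74 in Angus and by 3.54 to 4.12 in Holstein animals, and from 2 to 8 h BCL3 changed by -0.36 to 0.15 in Angus and by -1.44 to -0.72 in Holstein animals.

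The study was made to compare the breeds, and at 0 h the members differed little between them. Of the 8 tested, RELB was 1.83-fold higher in Holstein (log2 0.88, SE 0.22, FDR 0.00147) and NFKBIZ 1.40-fold higher (0.48, SE 0.15, FDR 0.0128), where 6.83% of rows were called higher in Holstein. NFKBIA differed by -0.14 (SE 0.20, 95% confidence interval -0.52 to 0.25, FDR 0.713). All 4 Holstein samples were above all 4 Angus samples for NFKBIZ, NFKB1 and RELB (9.35% of rows). Without the 3 libraries at 0 h that stood apart neither call was kept (RELB 0.66, FDR 0.312, and NFKBIZ 0.40, FDR 0.398, with 3 Angus and 2 Holstein samples). The call of NFKBIZ was also lost without Angus animal 4, Holstein animal 1 or Holstein animal 4 (highest FDR 0.0794). TNFAIP3 was under the filter at 0 h, and without the filter its difference was 0.59 (SE 0.35, FDR 0.397).

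At 2 h, 3 inhibitors were higher in Holstein, BCL3 by 2.28-fold (log2 1.19, SE 0.28, FDR 0.000597), NFKBIA by 2.35-fold (1.23, SE 0.41, FDR 0.0196) and NFKBIE by 1.71-fold (0.78, SE 0.23, FDR 0.00688), where 10.4% of rows were called higher in Holstein. No member was called higher in Angus at any hour. The samples did not overlap for BCL3 and RELA (12.9% of rows), although the RELA difference was small and not called (0.23, SE 0.10, FDR 0.101). These 3 calls were kept, with larger differences, when Angus animal 3, the highest Angus sample for each, was left out. The number of calls depended on that animal. Without that library 7 members were called (14.6% of rows called higher in Holstein), NFKBIZ by 1.81 (FDR 3.9e-07), NFKBIA by 1.77 (FDR 1e-07), BCL3 by 1.41 (FDR 6.99e-06), TNFAIP3 by 1.31 (FDR 0.043), NFKBIE by 0.96 (FDR 0.0001), RELB by 0.89 (FDR 0.00038) and NFKB2 by 0.68 (FDR 0.00309). The NFKBIA call was lost without Angus animal 1, 2 or 4 or Holstein animal 2 or 4 (highest FDR 0.0913).

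At 8 h, where none of the 4 libraries enters, 6 members were higher in Holstein cultures (8.72% of rows). TNFAIP3 was 2.64-fold higher (log2 1.40, SE 0.39, FDR 0.00658), NFKBIA 2.55-fold (1.35, SE 0.18, FDR 1.88e-10), NFKBIZ 2.01-fold (1.01, SE 0.20, FDR 4.44e-05), RELB 1.85-fold (0.88, SE 0.22, FDR 0.00172), NFKB2 1.80-fold (0.85, SE 0.21, FDR 0.00137) and NFKB1 1.64-fold (0.72, SE 0.21, FDR 0.00702). Each of these calls held with any 1 animal left out. NFKBIE (0.43, SE 0.17, FDR 0.0665), RELA (0.23, SE 0.10, FDR 0.09) and BCL3 (0.23, SE 0.18, FDR 0.404) did not pass. The 4 Holstein samples were all above the 4 Angus samples for 6 members (11.2% of rows), the called ones with NFKBIE in place of NFKB1. Marker levels differed between the breeds as well. At 8 h the summed endothelial markers were 3.53 to 5.21 CPM in Holstein and 2.63 to 3.26 CPM in Angus samples, and the summed fibroblast markers 64300 to 82100 and 39600 to 61500 CPM, with no overlap in either. The endothelial sums were apart at 2 h too (3.16 to 4.7 against 2.08 to 2.94 CPM), while the keratinocyte sums overlapped at 8 h (0.64 to 13.6 against 0.434 to 0.683 CPM). Before LPS, at 0 h, the fibroblast sums (75200 to 128000 in Holstein against 55400 to 70800 CPM in Angus) and keratinocyte sums (0.705 to 11.2 against 0.433 to 0.584 CPM) were already apart. The fibroblast sums include COL1A1, whose covered bases per count stood apart at 0 h in Angus animal 4 and Holstein animals 2 and 4. How far the 0 h fibroblast sums rest on this was not tested. The leukocyte sums were apart at 0 h in the other direction (2.15 to 3.34 against 3.38 to 5.21 CPM), and the endothelial and melanocyte sums overlapped. The part of these markers in the breed differences was not tested.

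**Figure D4:**
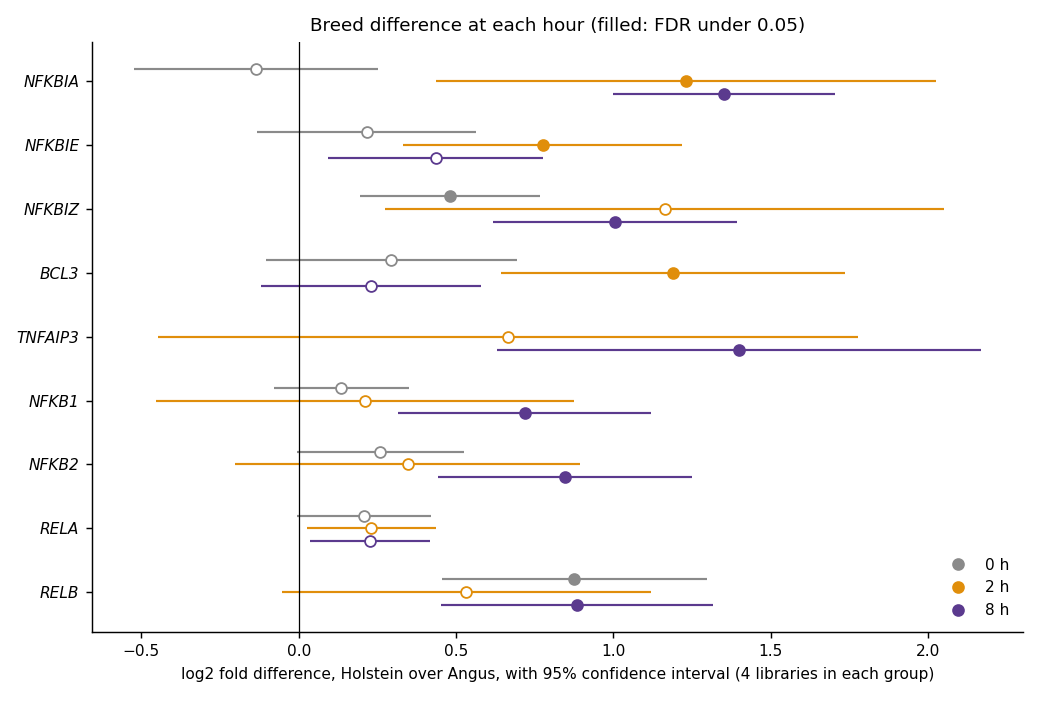
log2 fold difference between Holstein and Angus cultures (x axis, above 0 for higher in Holstein, with 95% confidence interval) at 0, 2 and 8 h, 4 libraries in each group; filled points had an FDR under 0.05 and TNFAIP3 was not tested at 0 h. At 2 h BCL3 was at 1.19, beside NFKBIA at 1.23 and NFKBIZ at 1.16 (not called), and BCL3 was at 0.23 at 8 h. At 8 h 6 members were called, from 0.72 (NFKB1) to 1.40 (TNFAIP3).

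Whether LPS acted differently in the breeds was tested as the interaction of breed and hour. From 0 to 8 h the response of NFKBIA was larger in Holstein by 1.48 on the log2 scale (SE 0.25, FDR 6.86e-05), or 2.79-fold, and NFKBIA was 1 of 9 members called (0.137% of rows called in either direction). The change of every Holstein animal exceeded that of every Angus animal for NFKBIA and NFKB2 (changes without overlap between breeds in 7.32% of rows). The NFKBIA call held with any 1 animal left out (highest FDR 0.00364), without the 4 libraries (1.29, FDR 0.0194) and by DESeq2 (FDR 4.28e-05), but not by the quasi-likelihood F test (FDR 0.227) or with all 24 samples in 1 model (FDR 0.223). With the animal as a block it was called by both tests (FDR 6.94e-07 and 0.0366). NFKB1 (0.59, FDR 0.0334) and NFKB2 (0.61, FDR 0.0405) were then called too, 3 members where 2.59% of rows were called, though neither of these by the blocked quasi-likelihood test (FDR 0.148 and 0.165). The values of the other 6 members lay between -0.07 (BCL3) and 0.79 (TNFAIP3, SE 0.55). For RELB the difference was 0.00 (SE 0.31, interval -0.61 to 0.62).

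From 0 to 2 h 0 of 9 interactions were called by edgeR's likelihood-ratio test (0.437% of rows), and likewise 0 by the quasi-likelihood F test and by DESeq2. At an unadjusted p under 0.05 there were 3 by each tool, NFKBIA, NFKBIE and BCL3. The largest values were those of NFKBIA (1.38, SE 0.48, interval 0.44 to 2.31, FDR 0.358) and BCL3 (0.91, SE 0.36, interval 0.19 to 1.62, FDR 0.682). With the animal as a block both were called (NFKBIA 1.48, FDR 0.0165, and BCL3 0.95, FDR 0.00702), 2 of 9 where 4.28% of rows were called, and neither was by the blocked quasi-likelihood test (FDR 0.116 and 0.0789). Without Angus animal 3 the NFKBIA interaction was called (FDR 0.000136), as was that of NFKBIZ (FDR 0.0246). Changes did not overlap between breeds for 1 of 9 members, BCL3, a share near that of all rows (10.1%). They were -0.12 to 1.18 in Angus and 1.27 to 1.85 in Holstein animals. For TNFAIP3 the interaction was 0.07 with a wide interval (-1.34 to 1.47).

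From 2 to 8 h, 0 of 9 interactions were called by edgeR's likelihood-ratio test (0.572% of rows), by the quasi-likelihood F test or by DESeq2, with 1, that of BCL3, at an unadjusted p under 0.05 by each tool (-0.96, SE 0.35, FDR 0.324). Without the 4 libraries BCL3 was called (-1.20, FDR 0.0433). With the animal as a block the fall of BCL3 was larger in Holstein by -0.96 on the log2 scale (FDR 9.4e-07) and the rise of NFKB2 was larger by 0.47 (FDR 0.00117), 2 of 9 where 6.31% of rows were called. Both were also called by the blocked quasi-likelihood test (FDR 0.00794 and 0.0223). Changes of single animals did not overlap between breeds for BCL3, NFKB2 and RELB (11.9% of rows). BCL3 changed by a mean of -0.996 ± 0.308 in Holstein and -0.029 ± 0.229 in Angus animals (SD, n = 4), and NFKB2 by 0.80 ± 0.12 and 0.34 ± 0.18. The value of NFKB2 without the 4 libraries was 0.14 in the fit without the block.

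Other genes of the pathway were taken from lists. Of 12 further IkB and IKK genes, all tested, 3 rose and 1 fell at 2 h, where 10.8% of rows rose and 11.2% fell, and 1 rose and none fell at 8 h, where 6.55% rose and 6.25% fell. NFKBID, another nuclear IkB gene, rose at 2 h (log2 1.23, SE 0.26, FDR 5.45e-05) and was at 0.15 (FDR 0.583) by 8 h. NFKBIB, which encodes IkB beta, rose by 0.54 (FDR 3.68e-05) and TAB2, an adaptor of the kinase that activates IKK, by 0.32 (FDR 0.00139) at 2 h. IKBKG, the regulatory subunit of IKK, fell by 0.24 (FDR 0.0276). Only TAB2 was called at 8 h (0.29, FDR 0.000674). The median of the list was -0.07 at 2 h, near that of all rows.

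Of 20 ubiquitin enzymes and other regulators, 17 were tested, of which 7 rose and 1 fell at 2 h (10.8% and 11.2% of all rows) and 2 rose and 1 fell at 8 h (6.55% and 6.25% of all rows). TNIP1, which encodes a binding partner of the TNFAIP3 protein, rose by 1.76 (SE 0.28) at 2 h and 2.27 (SE 0.31) at 8 h. It was higher in Holstein by 0.55 (SE 0.155, FDR 0.00597) at 0 h and by 1.48 (SE 0.30, FDR 9.67e-05) at 8 h. Its interaction of breed and hour at 8 h (0.92, SE 0.36) was not called. TRAF3, an adaptor that restrains the noncanonical branch, rose by 0.91 and 0.71. TRAF2 rose by 0.58 at 2 h (FDR 0.000363), and its value at 8 h was 0.19 (FDR 0.391). PDLIM2, which encodes a ligase that targets nuclear RELA protein, rose by 0.39 (FDR 0.0413) at 2 h and was below its 0 h level at 8 h (-0.73, FDR 0.000481).

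Of 16 known target genes, 12 passed the filter at 2 h and 11 at 8 h, and 9 rose at each hour with none falling, where 10.8% of all rows rose at 2 h and 6.55% at 8 h; genes silent at 0 h passed only through their treated samples. The chemokine IL8 rose by 8.36 (SE 0.45) at 2 h and 8.62 (SE 0.53) at 8 h on the log2 scale. The cytokine IL6 rose by 6.46 (SE 0.58) and 6.96 (SE 0.48), and the chemokine CCL5 by 5.63 (SE 0.60) and 7.06 (SE 0.61). CD83, a surface protein, rose by 6.90 (SE 0.53) at 2 h and was under the filter at 8 h. IL8, IL6, CCL5 and CD83 were all under the filter between breeds at 0 h. They entered these tests through their treated samples, so the counts of targets that rose depend in part on the filter. The sizes of their rises rest on low 0 h counts. Of 14 targets tested between breeds at 8 h, 6 were higher in Holstein (8.72% of all rows) and 1 in Angus (ICAM1, -0.43, SE 0.12, FDR 0.00667). The 8 h interaction was called for 2 of 11 targets (0.137% of rows), IL8 (FDR 0.00276) and IRF1 (1.32, SE 0.30, FDR 0.0163). For these 2 only the likelihood-ratio fit is given. IRF1 was lower in Holstein at 0 h (-0.64, SE 0.19, FDR 0.00957) and higher at 8 h (0.69, SE 0.24, FDR 0.0326), so its interaction rests in part on the 0 h difference. The size of the IL8 interaction rests on the same low 0 h counts and is not given. IRF1 and ICAM1 were named after their values were seen. ICAM1 and IL6 each have a second row in the files, and the row with more counts was used.

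**Figure D5:**
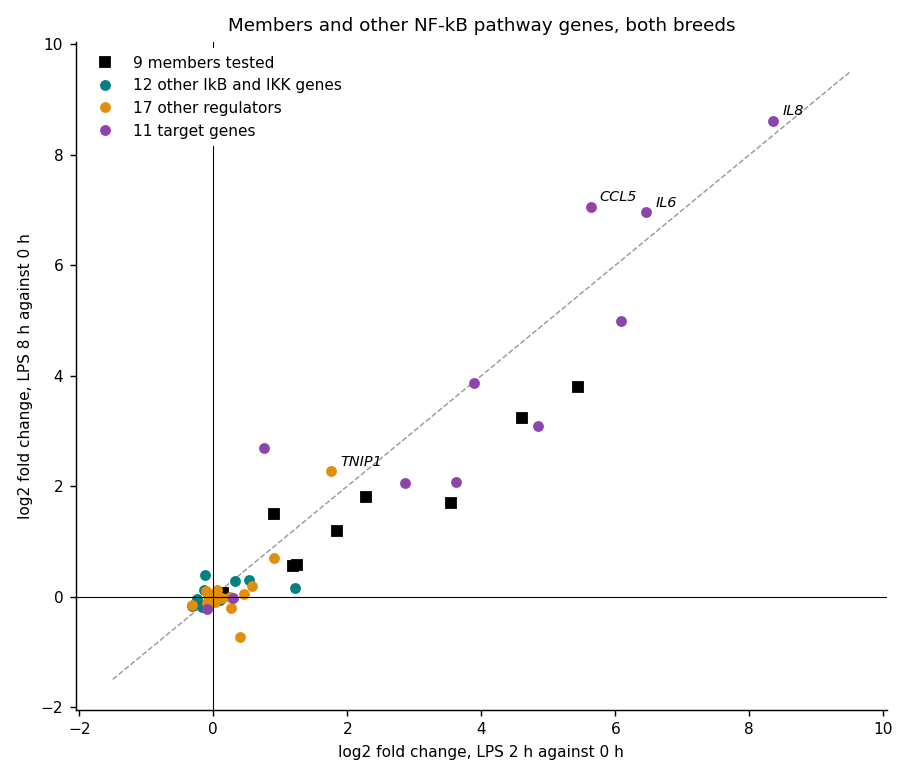
log2 fold change at 2 h (x axis) and at 8 h (y axis) against the same 0 h samples, both breeds, for the 9 members tested and for the 12 IkB and IKK genes, 17 regulators and 11 targets tested at both hours; points below the dashed line had a lower value at 8 h than at 2 h. NFKB2 (0.90 and 1.49), TNIP1 (1.76 and 2.27) and CCL5 (5.63 and 7.06) lie above the line, while TNFAIP3 (5.45 and 3.79) and NFKBIA (4.61 and 3.23) lie below it.

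Genes whose levels followed a member most closely were ranked over the 24 samples by Pearson's r of log2(CPM + 1), among 13073 rows with a symbol and a mean of 1 CPM or more. These samples share animals, hours and sequencing depth, and r is given as a description. NFKBIA was followed by TNFAIP3 (r = 0.976), LOC100848038 (0.970), IRF1 (0.969), NAB1 (0.964) and NFKB1 (0.964), of which LOC100848038 overlaps IRF1 on chromosome 7. NFKB2 was followed by TNIP1 (0.977), CD40 (0.975), CCL5 (0.959), PDXK (0.943) and CHST11 (0.937). RELA, which hardly moved with LPS, had lower values, with IL17RA (0.919), RUNX1 (0.902), GPR108 (0.9), SIX5 (0.895) and IL17RC (0.888).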

How the data were processed

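Poly(A) mRNA of 24 cultures was sequenced. The authors demultiplexed with CASAVA 1.7 and aligned trimmed reads to the bovine genome UMD v3.1 with NextGENe 2.3.4, and deposited 1 table per sample with raw read counts and the mean coverage signal per base for each row, a whole gene span with introns or an interval without a gene. Total counts exceeded matched reads (median 1.52 counts per matched read), so counts are not independent reads. Counts were used for all tests, and coverage only to compare how rows had been counted (covered bases per count).

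Members were the rows whose symbol was listed, and they and the gene lists were chosen with earlier results of these data known. Rows with at least 1 CPM in 50% of the samples compared were kept, scaled by TMM and tested with the likelihood-ratio test of edgeR 4.0.16 (R 4.3.3), with Benjamini-Hochberg FDR over all rows tested and calls under 0.05. Confidence intervals are 95% from the SE. The groups compared entered each fit. Of each pathway list, up to 4 genes with the largest change among those called were named. The likeness of levels was ranked with a pseudocount of 1 CPM.

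The same animals were sampled at each hour. Their deviations from the group means correlated at 0.432 or more between hours of 1 animal and at 0.269 or less between animals, and a fit with the animal as a block was an alternative. The other alternatives were the quasi-likelihood F test, DESeq2 1.42.0, other scalings and filters, all samples in 1 model, the 4 libraries left out and each animal left out. Replicates, which are different animals, were compared by the chi-square of their counts over its degrees of freedom, which was 33 to 461.2 in the 36 pairs. As counts are not independent reads, these values cannot separate differences between animals from counting error. The fits were tested on simulated data. Figures were drawn with matplotlib 3.10.9.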

Additional observations from a re-analysis of the deposited data

Results flagged for a closer look

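The response of NFKBIA to 8 h of LPS differed between the breeds by the test of the difference itself, the interaction of breed and hour, at 1.48 on the log2 scale in the direction of Holstein (edgeR's likelihood-ratio test, FDR 6.86e-05). It was not called by the quasi-likelihood F test (FDR 0.227) or with all 24 samples in 1 model (FDR 0.223). No animal's level of a member stood apart from the other 3 of its group by Dixon's test, in 60 groups of 4 tested.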

How the results depend on the processing

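The counts of members called at 2 h and at 8 h against 0 h, with both breeds together, stayed within 1.5 times under every alternative run. The replicate block, which takes the animal as a term, changed other counts. At 8 h against 2 h the 5 calls became 8 with the block or with all 24 samples in 1 model, 9 with the block and the quasi-likelihood F test, and 3 when a 2-fold change was also required. The 2 breed calls at 0 h became 0 with the 2-fold limit or without the 4 libraries and 1 with total count scaling or all 24 samples. The 3 at 2 h became 5 with all 24 samples and 7 without the 4 libraries, and the 6 at 8 h became 3 with the 2-fold limit. For the interaction at 2 h the 0 calls became 1 with total count scaling, 1 without the 4 libraries and 2 with the block. For that at 8 h the 1 call became 0 with the quasi-likelihood F test or all 24 samples and 3 with the block. From 2 to 8 h the 0 calls became 1 without the 4 libraries and 2 with the block by either test. The block changed no other count by over 1.5 times. The cause was not tested.

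Leaving out each animal in turn gave 3 to 7 calls at 8 h against 2 h, 6 to 8 in Holstein at 8 h, 6 to 8 in Angus at 2 h, 5 to 7 in Angus at 8 h, 1 to 2 between breeds at 0 h, 2 to 7 at 2 h and 6 to 7 at 8 h, and 0 to 2 and 1 to 1 for the interactions at 2 and 8 h.

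The signs that turned belonged to differences called in neither fit. RELA at 8 h against 2 h was 0.049 with total count scaling. NFKBIA between breeds at 0 h was 0.054 without the 4 libraries. For the interaction at 2 h, RELB was 0.225 without the 4 libraries. For that at 8 h, RELA was -9.16e-05 without the 4 libraries and RELB -0.00384 with the filter of 10 counts. From 2 to 8 h, NFKBIA was -0.024 with total count scaling, -0.443 without the 4 libraries, -0.00874 with the block and -0.00449 with the block and the quasi-likelihood F test, RELA was 0.00414 among rows with a symbol, and RELB -0.034 without the 4 libraries. With each animal left out, NFKBIA between breeds at 0 h ranged from -0.219 to 0.038. The interaction at 2 h ranged from -0.344 to 0.399 for TNFAIP3, -0.128 to 0.451 for NFKB1, -0.072 to 0.362 for NFKB2 and -0.00221 to 0.071 for RELA. That at 8 h ranged from -0.256 to 0.035 for BCL3, -0.03 to 0.04 for RELA and -0.065 to 0.066 for RELB, and that from 2 to 8 h from -0.3 to 0.268 for NFKBIA and -0.046 to 0.011 for RELA.

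Depth limits REL, and 4 animals per breed limit the breed comparisons. LPS and time in culture cannot be told apart.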

Other observations

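The interval without a gene symbol before NFKBIZ (chromosome 1, 46493029 to 46543486) was lower at 8 h than at 0 h (log2 -0.44, SE 0.10, FDR 0.00034), where NFKBIZ itself was higher. The intervals before NFKB2 and before RELB had log2 values of 0.01 and 0.11 at 2 h (FDR 0.969 and 0.716).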
